A study of Mus musculus with 2 samples.

Results

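The 34 genes described here mark the GABAergic interneurons of the cerebral cortex and were chosen by symbol. They make up 8 genes grouped as shared by most such neurons (pan-GABA), 14 medial genes and 12 caudal genes. Medial genes are those of interneurons born in the medial ganglionic eminence, the source of the Pvalb and Sst classes. Caudal genes are those of interneurons born in the caudal ganglionic eminence, the source of the Vip and Lamp5 classes. Synpr crosses these classes and was kept with the pan-GABA genes by choice. Each symbol matched 1 gene among the 55536 annotated genes of the tables. The RNA came from the left cerebral cortex of B6CASTF1/J mice, the F1 offspring of a C57BL/6J by CAST/EiJ mating, and the animals were females aged 36 days. Replicate 2 and replicate 1 have 1 total RNA library each, made from 300 ng of RNA, and no treatment, other tissue or other age was analysed here. The labels call them biological replicates and number the animals differently but give both the same donor record, so they are treated as separate mice, and the spread between them may in part be technical. With 1 library per mouse there is no condition to test, so values are given per mouse, ratios are replicate 2 over replicate 1, and no p-value was computed.

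Inhibitory interneurons make the transmitter GABA from glutamate with the 2 glutamate decarboxylases encoded by Gad1 and Gad2, and load it into synaptic vesicles with the transporter encoded by Slc32a1. Their inhibitory fate is set in the embryonic ganglionic eminences by homeobox factors of the Dlx family. In the medial eminence Nkx2-1 switches on Lhx6, which acts upstream of Sox6 and Satb1 in the Pvalb and Sst classes, whereas cells of the caudal eminence use Prox1, Nr2f2 and Sp8 and become the Vip, Calb2, Reln and Lamp5 classes. Not every gene of the list is limited to interneurons in mouse brain: Zeb2 and Maf are also made by glia or microglia, Sox6 by oligodendrocyte precursors, and Satb1 and Lamp5 by some projection neurons.

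The promoters of 4 genes are shown because each holds the first 6 bases of the cyclic AMP response element, TGACGT, the DNA site of the activity-regulated factor CREB, which was described at the rat somatostatin gene. Each window is 30 bases long, read 5′ to 3′ on the gene's own strand from the RefSeq promoter table for mm10, and the capitals mark the element, in full (TGACGTCA) for Sst and as its first 6 bases for the others.
Sst, chr16:23890874-23890903, minus strand: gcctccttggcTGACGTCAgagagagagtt
Vip, chr10:5639127-5639156, plus strand: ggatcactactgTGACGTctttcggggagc
Dlx2, chr2:71546795-71546824, minus strand: gctgttgctaggTGACGTtgcccgcggtca
Sox6, chr7:116038866-116038895, minus strand: gggactctgatgTGACGTgtagattttttt
The element begins 48 bases before the RefSeq start of Sst, 79 before that of Vip, 58 before that of Dlx2 and 139 before that of Sox6. In the GENCODE annotation used for the counts, Sst begins farther upstream, so its window lies inside the annotated first exon, while the other windows lie outside the annotated genes. On both strands, TGACGTCA occurred in 1 of 50 promoters of the listed genes (2%) and in 1.79% of all 32851 promoters, and TGACGT, which TGACGTCA contains, in 4 (8%) and in 7.51%. The promoter table held 29 of the 34 genes, without Calb2, Dlx5, Dlx6, Maf and Ndnf. Of 6 motifs searched, these were chosen for display after the counts were seen. Of the others, TGACGTAA occurred in none of the listed promoters (0.499% of all), TAATTA in those of Adarb2, Cort and Sp8 (5.29% of all), CACGTC in those of Sox6 and Sp8 (6.38%) and CATATG in that of Pvalb (3.91%).

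The neuropeptide genes Sst and Cort are shown beside each other because they encode related peptides and the reads of one could be placed on the other where the letters are the same. The windows are the 36 coding bases for the last 12 codons of Sst before its stop codon and the matching stretch of Cort, which ends 1 codon before its last. Capitals mark bases that are the same in both.
Sst-201, chr16:23889732-23889767, minus strand: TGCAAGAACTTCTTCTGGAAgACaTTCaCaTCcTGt
Cort-201, chr4:149125270-149125305, minus strand: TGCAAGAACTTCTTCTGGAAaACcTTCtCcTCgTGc
In this stretch 30 of 36 bases (83.3%) were the same. Both genes had whole expected counts in both libraries, so the tables show no sign of reads divided between them. Among the 34 genes, the 2 with expected counts that were not whole were Gad1 and Satb1, so their values carry the added uncertainty of divided reads. In the second transcript table, the summed counts of further genes were not whole. Dlx1, for example, had 562.3 in replicate 2 and 438.1 in replicate 1.

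The libraries held 35188800 expected counts in replicate 2 and 29417200 in replicate 1, of which the 34 genes took 57630 (0.164%) and 48399 (0.165%). Levels are given in TPM, which divides reads by transcript length and scales the sum over all rows to a fixed total. The short 7SL RNAs took 30.1% of TPM in replicate 2 and 24.3% in replicate 1, so the TPM of all remaining genes is pressed down more in replicate 2. Ratios of replicate 2 over replicate 1 therefore rest on counts with TMM scaling (trimmed mean of M-values). Over 18187 genes the coefficient of variation between the libraries beyond counting error was 12.2%. All intervals are 95% exact Clopper-Pearson intervals of counting error only, and the reads carry no molecular identifiers. In bulk tissue, fewer cells of a class and less RNA per cell cannot be told apart.

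Interneuron genes were well represented in the cortex of both mice. They were listed as markers of cortical cells with earlier results of these data known, so a high share of expressed genes follows from the choice. Of the 34 genes, 30 (88.2%) reached 1 TPM in each library, against 57.9% of 22015 nuclear protein-coding genes and 26.1% of all annotated genes. The genes below that level were Sncg, which missed it in replicate 1 alone, and Sp8, Chodl and Nkx2-1. Once expressed, these genes were not especially abundant, since the median of their mean TPM was 10.2 TPM over the 30 genes and 15.3 TPM over the 12754 expressed coding genes. By group median, pan-GABA genes stood highest at 22.6 ± 1.16 TPM (SD, n = 2). Medial genes followed with 10.5 ± 0.643 TPM and caudal genes with 6.58 ± 0.856 TPM. The pan-GABA median falls in a gap above Dlx1, at 7.86 TPM in replicate 2 and 8.63 TPM in replicate 1. The next gene up was Gad2 at 35.8 TPM in replicate 2 and Slc32a1 at 38.3 TPM in replicate 1. Without Synpr, Dlx1 would be the middle gene, below the medial medians of 10.005 and 10.9 TPM in replicates 2 and 1. The rank of this group therefore depends on the placement of Synpr. The summed level was largest for the medial genes, at 437 TPM in replicate 2 and 483 TPM in replicate 1. That sum includes Zeb2, at 67.2 and 91.5 TPM, and Satb1, at 60.7 and 73.6 TPM, which are not limited to interneurons. The caudal genes summed to 215 and 247 TPM in replicates 2 and 1, and the pan-GABA genes to 289 and 305 TPM. The caudal sum includes Lamp5, at 113 and 135 TPM, which some projection neurons also make. Sst, Gad1 and Lamp5 alone held 48.2% of the summed TPM of all 34 genes in replicate 2 and 46.4% in replicate 1.

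**Figure D1:**
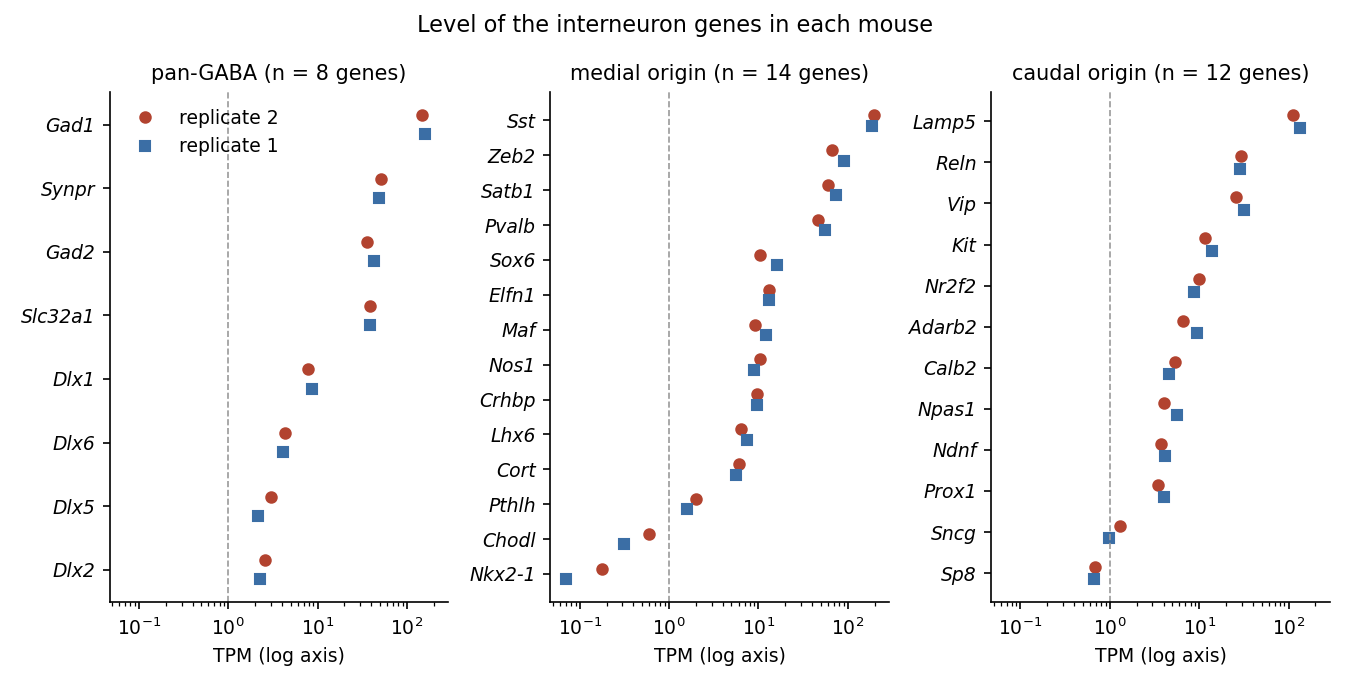
TPM of each of the 34 genes in replicate 2 (circles) and replicate 1 (squares) on a log axis, with the genes of each group ordered by mean; the dashed line marks 1 TPM. Within each gene the mice lie close together compared with the distance from Sst, at 191 TPM on average, to Nkx2-1, at 0.125 TPM.

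Of the pan-GABA genes, the decarboxylase gene Gad1 was the most abundant, with 146 TPM in replicate 2 and 158 TPM in replicate 1. Its partner Gad2, whose enzyme is anchored to synaptic vesicles, had 35.8 and 42.9 TPM in replicates 2 and 1. Gad1 led in both mice, 4.09 times above Gad2 in TPM in replicate 2 and 3.69 times in replicate 1. In expected counts, where transcript length is not corrected, the same ratio was 1.73 in replicate 2 and 1.70 in replicate 1, and in TPM of the second transcript table it was 2.88 and 2.56. Gad1 lies on chromosome 2 of mm10 from 70553072 to 70602014.

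The vesicular GABA transporter gene Slc32a1 was measured at 38.7 TPM in replicate 2 and 38.3 TPM in replicate 1, the smallest gap in TPM among the pan-GABA genes above 10 TPM. Synpr, which encodes the synaptic vesicle protein synaptoporin, had 50.7 TPM in replicate 2 and 48.6 TPM in replicate 1. Slc17a7, the vesicular glutamate transporter gene of cortical projection neurons, stood far above all of these. The ratio of Slc32a1 to Slc17a7 was 0.0602 in replicate 2 and 0.0623 in replicate 1, and that of Gad1 to Slc17a7 was 0.228 and 0.257.

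The Dlx homeobox genes were kept at low levels. Dlx1 had 7.86 TPM in replicate 2 and 8.63 TPM in replicate 1, against 2.61 and 2.27 TPM for its neighbour Dlx2 on chromosome 2. Dlx6 had 4.27 TPM in replicate 2 and 4.13 TPM in replicate 1, on 102 and 82 counts, and Dlx5 had 3.02 and 2.18 TPM, on 101 and 54 counts. Dlx1 therefore exceeded Dlx2 by 3.01 times in replicate 2 and 3.80 times in replicate 1, while the Dlx5 to Dlx6 ratio lay below 1, at 0.707 and 0.528. Dlx1 and Dlx6 each overlap an antisense gene, and without the strand setting of the counting their reads cannot be kept apart with certainty. Dlx6os1 had 442 counts in replicate 2 and 458 in replicate 1, more than Dlx6 itself, and Dlx1as had 66 and 80.

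Among medial genes, Sst, the gene of the peptide somatostatin, was the most abundant of all 34, with 195 TPM in replicate 2 and 187 TPM in replicate 1. Pvalb, which encodes the calcium buffer parvalbumin of fast-spiking cells, had 46.4 TPM in replicate 2 and 55.9 TPM in replicate 1. Sst thus exceeded Pvalb by 4.19 and 3.36 times in replicates 2 and 1. Cort, the gene of the related peptide cortistatin, had 6.02 TPM in replicate 2 and 5.55 TPM in replicate 1 on 88 and 60 counts, so that Sst exceeded it 32.3 and 33.8 times. Sst lies on chromosome 16 from 23889573 to 23890958.

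Medial transcription factors spanned a wide range of levels. Zeb2, a repressor that directs the migration of medial interneurons to cortex in mouse, had 67.2 TPM in replicate 2 and 91.5 TPM in replicate 1. Satb1, a chromatin organiser of Sst cells, had 60.7 and 73.6 TPM in replicates 2 and 1, and Sox6, which acts downstream of Lhx6, 10.5 and 16.1 TPM. Maf, a leucine zipper factor of migrating medial interneurons, had 9.27 TPM in replicate 2 and 12.1 TPM in replicate 1. Lhx6, the factor kept on through life in these cells, had 6.46 TPM in replicate 2 and 7.45 TPM in replicate 1. Nkx2-1, which cortical interneurons switch off as they leave the eminence, was at 11 counts in replicate 2 and 3 counts in replicate 1, a level too near the floor of 3 counts for a ratio to Lhx6 to be given.

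Genes of medial subclasses followed at moderate levels. Elfn1, a postsynaptic protein of Sst cells that shapes their excitatory input, had 13.3 TPM in replicate 2 and 13.2 TPM in replicate 1. Nos1, the neuronal nitric oxide synthase gene, had 10.5 TPM in replicate 2 and 8.90 TPM in replicate 1, and Crhbp, which encodes the binding protein of corticotropin-releasing hormone, 9.53 and 9.74 TPM. Pthlh, which encodes parathyroid hormone-like peptide, had 69 counts in replicate 2 and 45 in replicate 1. Chodl, a marker of the rare long-range Sst and Nos1 cells, rested on 26 and 14 counts in replicates 2 and 1.

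Among caudal genes, Lamp5, which encodes a membrane protein of neurogliaform cells, stood far above the rest, with 113 TPM in replicate 2 and 135 TPM in replicate 1. The peptide gene Vip had 25.7 TPM in replicate 2 and 31.6 TPM in replicate 1, and Reln, the gene of the secreted glycoprotein reelin, 29.6 and 28.4 TPM. The Lamp5 to Vip ratio was nearly the same in both mice, at 4.37 in replicate 2 and 4.27 in replicate 1. Sst exceeded Vip 7.56 and 5.93 times in replicates 2 and 1. Calb2, the gene of the calcium buffer calretinin found in part of the Vip cells, had 5.40 TPM in replicate 2 and 4.54 TPM in replicate 1.

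Caudal transcription factors and regulators were lower. Nr2f2, the nuclear receptor COUP-TFII, had 10.05 TPM in replicate 2 and 8.68 TPM in replicate 1. Adarb2, a brain member of the adenosine deaminase family of RNA editing proteins, had 6.54 TPM in replicate 2 and 9.38 TPM in replicate 1. It stood close to Lhx6, the matching marker of the medial classes: in TPM, the Lhx6 to Adarb2 ratio stood at 0.988 in replicate 2 and 0.794 in replicate 1. Prox1, a homeobox factor kept on in caudal interneurons, had 3.46 and 4.00 TPM in replicates 2 and 1, and the bHLH-PAS factor gene Npas1 had 4.04 and 5.68 TPM. Sp8, a zinc finger factor, had 76 counts in replicate 2 and 54 in replicate 1.

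The remaining caudal genes mark subclasses. Kit, a receptor tyrosine kinase gene, had 11.5 TPM in replicate 2 and 13.8 TPM in replicate 1. Ndnf, the gene of a secreted factor of layer 1 neurogliaform cells, had 3.75 and 4.15 TPM in replicates 2 and 1, 30.02 and 32.57 times below Lamp5. Sncg, which encodes gamma-synuclein and marks a class of Cck basket cells, had 25 counts in replicate 2 and 14 in replicate 1.

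In the order of mean TPM, the ranges of neighbours often overlapped. Of the 33 neighbouring steps from Sst down to Nkx2-1, 16 had ranges of the mice that did not overlap, and 14 of those kept their order in the second transcript table. The steps from Sst to Gad1 to Lamp5 to Zeb2 were apart, as were Satb1 from Pvalb and Vip from Sox6. Zeb2 and Satb1 overlapped, as did Gad2 and Slc32a1, Reln and Vip, and the run of medial and caudal genes from Sox6 through Nr2f2. Such overlap leaves aside that both genes of a step were measured in the same libraries. Within each mouse, Zeb2 stood above Satb1 and Kit above Maf. Gad2 and Slc32a1, like Reln and Vip, changed order between the mice. The 10 most abundant genes were the same 10 in the second transcript table, whose TPM values were a median of 1.58 times higher and put Lamp5 above Gad1. Of the 18 ratios between fixed pairs, 13 lay above 1 in both mice and 5 below 1 in both, in TPM of either table and in counts. The choice of the upper gene sets the side of 1, so only the agreement of each pair across mice and measures is read. Of the 13, the Lhx6 to Nkx2-1 ratio rests on only 11 and 3 counts of Nkx2-1 in replicates 2 and 1.

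Between the mice, the interneuron genes differed about as much as other genes did. Ratios were read for the 26 genes with a mean of at least 100 counts. None of the 26 stood 1.5-fold or more apart, where 3.08% of 12613 genes with that mean did. The median log2 ratio was 0.057 over the 26 genes, with a range of -0.23 to 0.54, against 0.042 over all 12613 genes. Without regard to sign, the median size of the log2 ratio was 0.17 over the 26 genes and 0.13 over all genes, a gap that was not tested. At a ratio of at least 5 to 4, 3 of the 26 (11.5%) stood apart, near the 12.3% of all genes. All 3, Dlx2, Calb2 and Nr2f2, were higher in replicate 2, as were 6.42% of all genes, and none was lower, as were 5.91% of all genes.

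**Figure D2:**
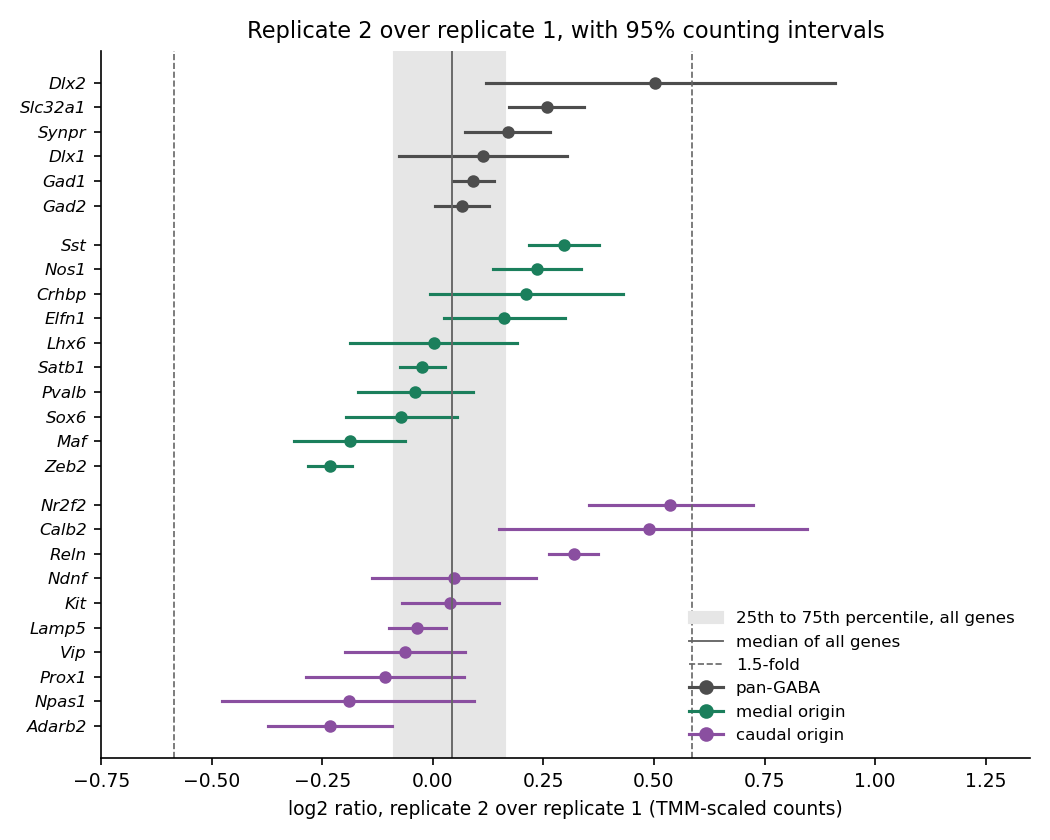
Log2 ratio of replicate 2 over replicate 1 in TMM-scaled counts for the 26 genes with a mean of at least 100 counts, with 95% counting intervals as lines; the grey band and line give the quartiles and median of all 12613 genes. Every point lies inside the dashed 1.5-fold lines, and the 6 pan-GABA genes all lie above the median of all genes.

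Ratios of the pan-GABA genes were small. All 6 with enough counts had a log2 ratio above 0, as did 58.9% of all genes, and a median of 0.14, and all 6 lay above 0 under DESeq2 size factors, library totals and the second table, but 1 of 6 lay above 0 under spike-in scaling and 3 of 6 in deposited TPM. Spike-in scaling moves the median of all genes to -0.42 and deposited TPM moves it to -0.20. Relative to that median, 6 of 6 lay above it under spike-in scaling and 5 of 6 in deposited TPM. Slc32a1 had a log2 ratio of 0.26 (interval 0.17 to 0.34), from 2640 counts in replicate 2 and 1933 in replicate 1. Synpr had 0.17 (0.073 to 0.27), Gad1 had 0.092 (0.045 to 0.14) and Gad2 had 0.067 (0.0055 to 0.13). Dlx2 had 0.50 (0.12 to 0.91) on only 145 and 89 counts, and Dlx1 had 0.11 with an interval from -0.077 to 0.30 that includes 0.

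Medial genes pointed both ways, with 5 ratios above and 5 below 0 and a median of -0.011. Sst was higher in replicate 2, with a log2 ratio of 0.30 (0.22 to 0.38) from 3060 counts in replicate 2 and 2180 in replicate 1. Nos1 had a ratio of 0.24 (0.14 to 0.34) and Elfn1 one of 0.16 (0.024 to 0.30). Zeb2 was the lowest of the 26, with a ratio of -0.23 (-0.28 to -0.18) from 6461 counts in replicate 2 and 6642 in replicate 1, and Maf had -0.19 (-0.31 to -0.063). For Pvalb, Satb1, Sox6, Lhx6 and Crhbp the interval included 0, with ratios of -0.040, -0.024, -0.071, 0.0013 and 0.21. Of the genes whose promoter windows are shown above, Vip had a ratio of -0.064, Dlx2 of 0.50 and Sox6 of -0.071, beside 0.30 for Sst.

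Caudal genes were likewise divided, with 5 ratios above and 5 below 0 and a median of 0.0017. Nr2f2 had the highest ratio of the 26, at 0.54 (0.35 to 0.72), from 642 counts in replicate 2 and 387 in replicate 1. Reln had 0.32 (0.26 to 0.37) from 6266 and 4397 counts in replicates 2 and 1, and Calb2 had 0.49 (0.15 to 0.85) from 182 and 113. Adarb2 was lower in replicate 2, at -0.23 (-0.37 to -0.092). Intervals of Lamp5 at -0.035, Vip at -0.064, Prox1 at -0.11, Npas1 at -0.19, Kit at 0.039 and Ndnf at 0.047 included 0. In all, 11 of the 26 intervals (42.3%) lay above 0 and 3 (11.5%) below, where 29.5% of the intervals of all 12613 genes lay above 0 and 17.5% below. All genes thus leaned the same way, and no more is read from the split. Under spike-in scaling 3 of the 26 ratios were above 0, those of Dlx2, Calb2 and Nr2f2.

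TPM gave another picture of some genes. TPM ratios carry the shift of all genes, whose median was -0.20 in deposited TPM and 0.042 in TMM-scaled counts. They also follow the effective length, which depends on how reads are divided among transcripts. Sox6 had 10.5 TPM in replicate 2 and 16.1 TPM in replicate 1, a log2 ratio of -0.61. Its unscaled counts were 1082 and 995, with a TMM-scaled ratio of -0.071. The effective length of Sox6 was 4084 bases in replicate 2 and 3311 bases in replicate 1. Nos1 showed the opposite shift, with 7236 bases in replicate 2 and 8609 bases in replicate 1 and a TPM ratio of 0.24.

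**Figure D3:**
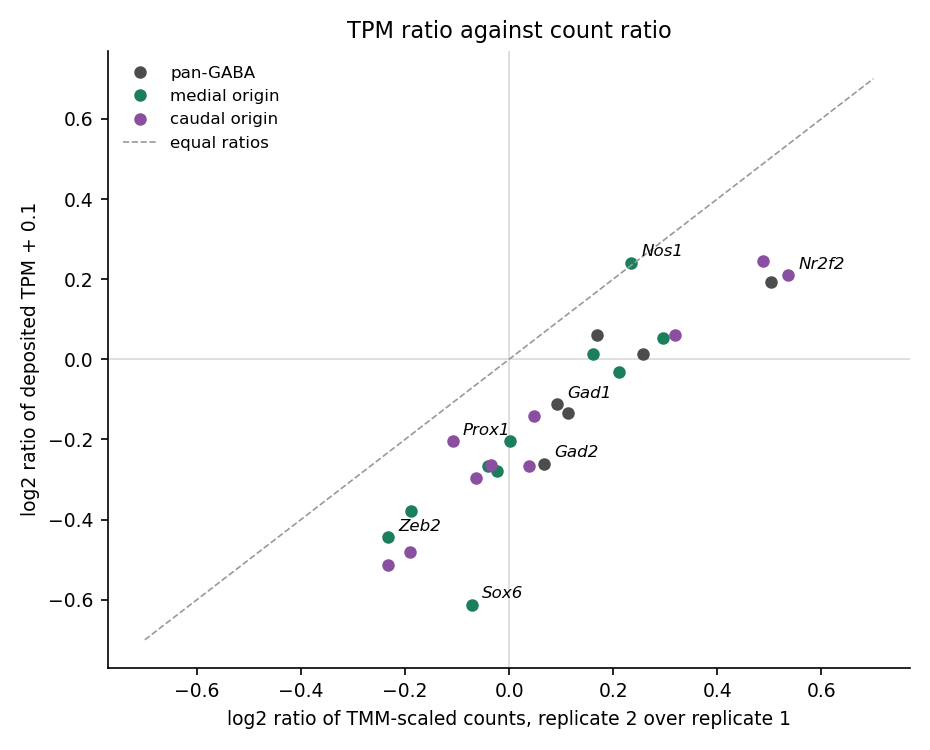
Log2 ratio of deposited TPM + 0.1 against the log2 ratio of TMM-scaled counts, replicate 2 over replicate 1, for the 26 genes, coloured by group; the dashed line marks equal ratios. Most genes lie below the line by a similar amount, Sox6 lies lowest at -0.61 and Nos1 lies on the line at 0.24.

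Many of these genes were divided among several annotated transcripts. Of the 26 genes, 20 had 2 or more transcripts with at least 10% of the gene's TPM. The leading transcript had 50% or more of the gene's TPM in each mouse for 15 genes, was the same in both mice for 21, was the same in the second transcript table for 21, and was protein-coding for 23. Sst and Slc32a1 have 1 annotated transcript each. Short reads cannot always tell such transcripts apart, so second-table shares are named where the leader or the size changes, and the plot of leading shares gives all of them.

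Gad1 was split among a full-length coding transcript and shorter ones in the first table only. Gad1-201, of 17 exons, held 38.4% of Gad1 TPM in replicate 2 and 33.5% in replicate 1, and the noncoding Gad1-206 held 28.6% and 35.4%. Gad1-204, of 398 bases, held 28.8% and 24.2% in replicates 2 and 1 on 318 and 214 counts. The second table gave Gad1-201 93.3% in replicate 2 and 87.4% in replicate 1, and gave Gad1-204 none. Gad2 was simpler, with Gad2-201 at 92.2% and 86.3% in replicates 2 and 1. Dlx2-201 held 90.1% in replicate 2 and 85.0% in replicate 1, and all of Dlx2 in the second table. Dlx1-201 held 41.9% and 30.2% in replicates 2 and 1, beside the retained-intron transcript Dlx1-203 at 18.4% and 32.9%. In the second table Dlx1-201 held 28.6% in replicate 2 and 28.0% in replicate 1, and Dlx1-205 held 21.5% and 34.1%. Synpr-202 held 41.2% in replicate 2 and 31.5% in replicate 1, but the second table put Synpr-201 first.

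Among medial genes, the split of Pvalb and of Lhx6 was not settled between the mice or the tables. Pvalb-201 held 49.0% in replicate 2 and 88.4% in replicate 1 in the first table, against 89.0% and 60.0% in the second, so the mouse with the larger share changed. The leading transcripts Nos1-206 (66.4% and 81.6% in replicates 2 and 1), Elfn1-201 (77.3% and 83.2%) and Maf-201 (57.8% and 53.0%) held over 50% in both tables. Lhx6-204 held 37.7% and 49.6%, yet 13.8% and 1.89% in the second table, which put Lhx6-205 first. Sox6-210, of 16 exons, held 38.3% in replicate 2 and 28.2% in replicate 1, and 42.8% and 32.6% in the second table. Satb1-203 held 32.0% in replicate 2 and 31.9% in replicate 1, and 25.5% and 20.5% in the second table. Zeb2-229, a noncoding transcript of 584 bases, held 22.3% in replicate 2 and 17.4% in replicate 1 but 8.78% and 1.53% in the second table, which put the coding Zeb2-202 first with 18.8% in each mouse.

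In the caudal group, Lamp5 was divided between a noncoding and a coding transcript. Lamp5-202, a processed transcript, held 51.5% in replicate 2 and 52.7% in replicate 1, and the coding Lamp5-201 held 42.1% and 41.8%. In the second table Lamp5-201 led with 75.8% in replicate 2 and 74.7% in replicate 1. Adarb2 was led in both tables by Adarb2-203, annotated for nonsense-mediated decay, at 43.1% and 39.4% in replicates 2 and 1. In the first table Kit was shared nearly evenly by the coding transcripts Kit-201 at 49.8% and 50.4% and Kit-204 at 47.2% and 42.2% in replicates 2 and 1. The second table gave Kit-201 41.3% and 39.6% and Kit-204 46.0% and 26.9% in replicates 2 and 1. It gave the retained-intron transcript Kit-205 10.5% in replicate 2 and 24.1% in replicate 1. Prox1-202 held 63.3% and 77.3%, Npas1-201 held 85.6% and 60.0%, and Ndnf-201 held 53.9% and 55.9%, and each led with over 60% in the second table too. Nr2f2-201 held 48.4% in replicate 2 and 43.7% in replicate 1 but 26.1% and 29.6% in the second table, which put Nr2f2-204 first with 38.7% and 36.1%. Over all 34 genes, processed transcripts took 9.93% of counts in replicate 2 and 11.4% in replicate 1, against 1.51% and 1.64% over all nuclear coding genes. Gad1-206 and Lamp5-202 alone made up 86.5% of these counts in replicate 2 and 85.7% in replicate 1. In the second table the 34 genes had 1.99% in replicate 2 and 3.10% in replicate 1, against 1.59% and 1.70% over all nuclear coding genes. Retained-intron transcripts took 1.76% and 3.06% in replicates 2 and 1, below the 3.04% and 4.05% of all coding genes.

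**Figure D4:**
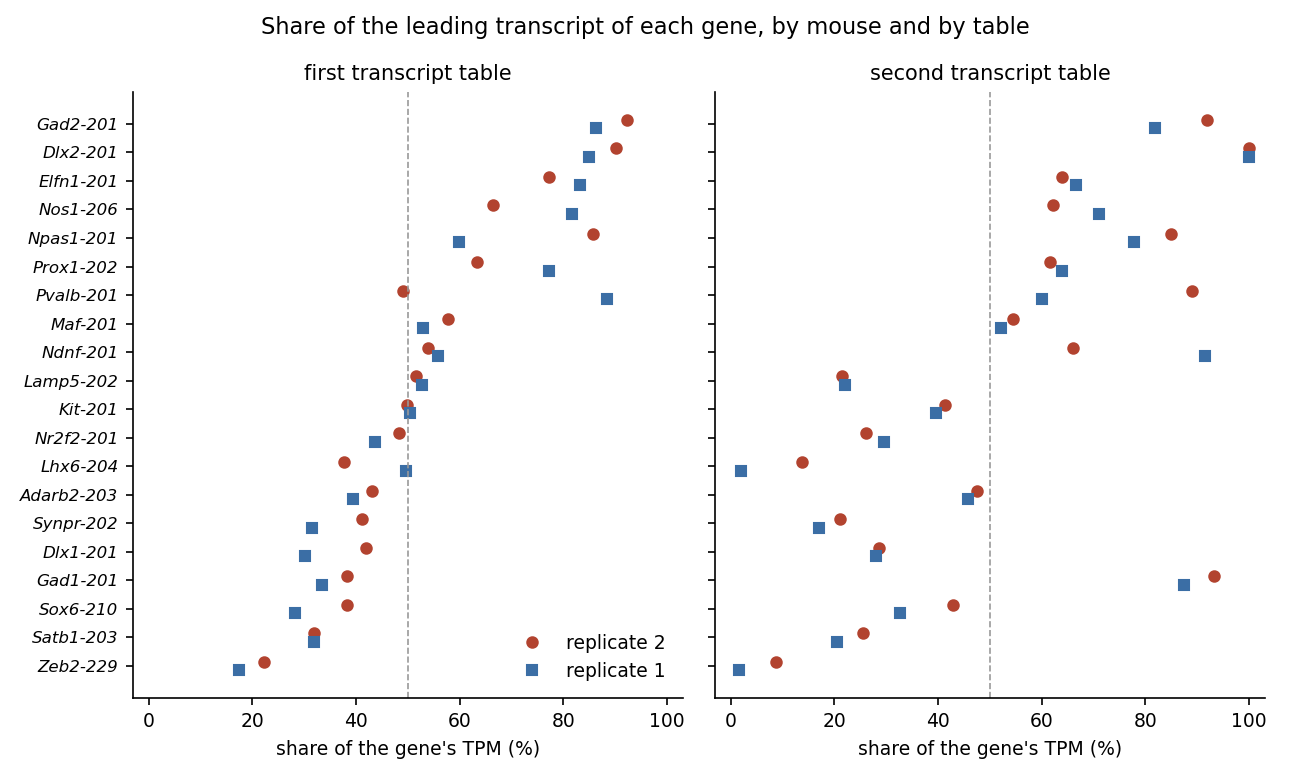
Share of the gene's TPM held by the leading transcript of the first transcript table, in the first (left) and second (right) table, for the 20 genes with 2 or more transcripts of at least 10%; circles are replicate 2, squares replicate 1, and the dashed line marks 50%. Gad1-201 lies below 40% on the left and above 80% on the right, and the 2 mice change places for Pvalb-201.

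Other genes of these cells were present as well. Of 20 further interneuron genes, 19 reached 1 TPM in each mouse, the exception being Hpse, and the median log2 ratio of the 16 with at least 100 counts was 0.13. Cck was the highest, at 357 TPM in replicate 2 and 384 TPM in replicate 1, although projection neurons also make it, and Npy had 99.1 and 107 TPM in replicates 2 and 1. All 13 genes of GABA uptake, breakdown and supply reached 1 TPM, with a median log2 ratio of 0.063. They included Abat, the GABA transaminase gene, at 64.05 TPM in replicate 2 and 66.9 TPM in replicate 1. None of the 16 further interneuron genes and of the 12 genes of GABA handling with enough counts stood 1.5-fold apart, where 3.08% of 12613 genes did. The median log2 ratio of those 12613 genes was 0.042. Of nuclear protein-coding genes, 57.9% reached 1 TPM in each library.

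Other cell types that could add to these levels were measured beside them. Striatal projection neurons are GABAergic and make Gad1 and Gad2, and all 8 of their markers reached 1 TPM, with a summed 201.1 TPM in replicate 2 and 200.97 TPM in replicate 1. Their median log2 ratio was 0.32, with 7 of 8 above 0, against a median of 0.042 and 58.9% above 0 over all 12613 genes. None of the 8 had 0 counts in both libraries. Ppp1r1b, which cortex also makes, led that list, while Drd2 had 3.96 TPM in replicate 2 and 3.54 TPM in replicate 1. Of 5 olfactory bulb markers, 2 reached 1 TPM, and the list summed to 14.5 TPM in replicate 2 and 14.2 TPM in replicate 1. Most of that sum came from Dcx, at 9.18 TPM in replicate 2 and 11.02 TPM in replicate 1. Cdhr1 had 4.54 and 2.70 TPM in replicates 2 and 1, so these 2 genes moved in opposite directions in TPM. In TMM-scaled counts Cdhr1 stood over 1.5-fold apart, at a log2 ratio of 0.98. Median log2 ratios were 0.052 for excitatory neuron markers, 0.16 for astrocytes, -0.090 for oligodendrocytes, 0.092 for their precursors, 0.16 for microglia and -0.034 for endothelium. The part of these cell types in the ratios of the interneuron genes was not tested.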

How the data were processed

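Both libraries form 1 group, and replicate numbers come from the labels. The members are a list of symbols to which no threshold on a value was applied, but they and all gene lists were chosen with earlier results of these data known. Libraries kept strand, were reduced in ribosomal RNA and carried ERCC spike-ins, per the labels, and the build is mm10. Tables use GENCODE M21, per the deposited notes. Neither the quantifiers, the aligner and their versions nor the strand setting of the counting was given in the sources used here. Gene tables and first transcript tables hold expected counts, TPM and FPKM computed by the authors, and the share of each transcript as a percent, per the file headers. The second transcript tables hold an estimated count and TPM, per the file headers. Reads of the CAST/EiJ allele were quantified on the mm10 reference by the authors, and any loss was not tested.

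Symbols were matched to gene identifiers in the second transcript table. Expected counts were rounded for ratios, which use TMM library sizes (edgeR 4.0.16, R 4.3.3) and a prior count of 2. Alternatives used DESeq2 1.42.0 size factors, library totals, spike-ins, other filters and the second tables. Transcript shares divide the TPM of a transcript by the summed TPM of all transcripts of its gene. Python 3.11.15 with pandas 2.3.3, scipy 1.17.1 and matplotlib 3.10.9 was used. Ratio steps were tested on simulated data. All 34 genes are named, with values per mouse for those with a mean of at least 100 counts and counts for the 8 below it (some genes of the other lists are not reported here by name), and leading transcripts for genes with at least 2 transcripts of at least 10%. Promoter and coding windows were read from RefSeq and GENCODE M21 sequences, and the motifs and window lengths were chosen after the sequences were seen.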

Additional observations from a re-analysis of the deposited data

How the results depend on the processing

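Group levels depended on what TPM was scaled to. Medians of the pan-GABA, medial and caudal genes were 35.6, 15.9 and 10.6 TPM in the second transcript table, 51.1, 23.6 and 14.8 when rescaled to nuclear coding genes, and 15.3, 7.06 and 4.43 in FPKM, in the same order each time. Synpr was kept among the pan-GABA genes in all of these settings. With either mouse alone they ran from 21.8 to 23.5, from 10.005 to 10.9 and from 5.97 to 7.18 TPM. Between 30 and 31 genes reached 1 TPM with either mouse alone, 32 reached 0.5 TPM, 22 reached 5 TPM and 33 reached 1 TPM in the second table. The median log2 ratio was -0.0073 with library totals, -0.41 under spike-in scaling, 0.12 where the mean count had to reach 10, 0.14 with no filter, 0.088 in the second table and -0.17 in deposited TPM. Relative to the median of all genes under the same scaling it stayed between 0.014 and 0.031 for the scalings that kept the count filter. The count of genes at least 1.5-fold apart was 4 under spike-in scaling (all lower in replicate 2), 2 when the mean count had to reach 10 (Dlx5 and Chodl), 3 with no filter (also Nkx2-1), 1 in the second table (Dlx2), 1 in deposited TPM (Sox6) and 3 at a ratio of at least 5 to 4. It was 0 with DESeq2 size factors, library totals, a prior count of 0.5 and at 2-fold. Shares of all genes are given for TMM scaling only: 3.08% at 1.5-fold, 12.3% at 5 to 4 and 0.706% at 2-fold. Spike-in scaling by itself moves the median of all genes to -0.42, where 1.5-fold is a log2 ratio of 0.58 in size. The counts under the other settings are therefore not read as results about these genes. Of 26 ratios, 26 kept their sign with DESeq2 size factors, 23 with library totals, 21 in the second table, 19 in deposited TPM and 13 with spike-ins. The 13 pairs above 1 did not change in number under any setting. At a share of 75%, 8 genes had a leading transcript that dominant in both mice, and with either mouse alone 15 to 17 passed 50%. No paired analysis was possible because there is only 1 group. Dlx5, Dlx6, Cort, Pthlh, Sncg, Sp8, Chodl and Nkx2-1 had too few counts for their ratios to be read.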

Other observations

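Annotated genes that overlap the interneuron genes were also counted. On the opposite strand, 17 of the 34 genes overlap 27 other genes, of which 14 had 0 counts in both libraries and 2 had a mean of at least 100 counts. These 2 were Dlx6os1, with a log2 ratio of -0.24 (95% counting interval -0.44 to -0.052) beside 0.12 (-0.31 to 0.56) for Dlx6, and Gm6934, of which 472 bases overlap Satb1, with -0.62 (-1.03 to -0.24) beside -0.024 for Satb1.

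On the same strand as Satb1, 5 genes lie within it, all of the TEC class (a gene model to be experimentally tested). They were chosen after their values were seen. Each was lower in replicate 2, with log2 ratios from -1.39 to -1.05 and counting intervals below 0. Together they held 221 counts in replicate 2 and 451 in replicate 1. All but C230085N15Rik, at 71 and 131 counts, fell under the mean of 100 counts used for ratios. Of the 12613 genes with that mean, 17.5% had intervals below 0. TEC genes inside Adarb2 on its strand were lower too. Gm48261 had -0.85 (-1.52 to -0.28), and the intervals of Gm48262 and Gm48259 included 0. Satb1 itself had 6560 counts in replicate 2 and 5837 in replicate 1. Whether reads of Satb1 introns make up the counts of the 5 genes inside it was not tested.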
